A study of Homo sapiens with 6 samples.

Results

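The RNA-seq data of GMDS-AS1-silenced HCT116 cells were examined for the genes that take cells from G1 into S phase. These are 10 genes: the D-type cyclins CCND1, CCND2 and CCND3, their kinases CDK4 and CDK6, the E-type cyclins CCNE1 and CCNE2, their kinase CDK2, and the CIP/KIP inhibitors CDKN1B (p27) and CDKN1C (p57). They were chosen by symbol and role, and each symbol was found once among the 60662 genes with a value. HCT116 is an established human colorectal cancer cell line. All 6 libraries came from cells stably transduced with a lentiviral pLKO.1 puro plasmid, which carried a nontarget shRNA in the control group (shCtrl, n = 3, genotype WT in the labels) and shRNA2 against the long noncoding RNA GMDS-AS1 in the other (GMDS-AS1 KD, n = 3). The labels call the libraries of each group biological replicates and give no treatment and no time point. The KD group holds 1 hairpin in 1 stably transduced line, so effects of this hairpin and of the loss of its target cannot be told apart.

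D-type cyclins are made when growth factors reach a cell in G1, and they activate CDK4 and CDK6. These kinases phosphorylate the retinoblastoma protein RB1, which then releases E2F transcription factors, and E2F raises the E-type cyclins and the genes of DNA replication. Cyclin E with CDK2 completes the phosphorylation of RB1 and starts replication, while p27 and p57 bind the cyclin-kinase complexes and hold them back. In the intestine, CCND1 is known as a gene that Wnt signaling can raise, and cyclin E is known for being degraded through the ubiquitin ligase receptor FBXW7. The comparison asks which of these mRNAs differ when GMDS-AS1 is silenced. Protein levels, kinase activity and cell cycle phase were not measured in these libraries.

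The sequence that sets the groups apart is the hairpin. Either strand of an shRNA can act like a miRNA through its seed, bases 2 to 8 from its 5′ end, which stand in capitals.
shRNA2 guide strand: tTACCATCtatctgtggtctt
shRNA2 passenger strand: aAGACCACagatagatggtaa
A site for the guide seed reads GATGGTA and a site for the passenger seed reads GTGGTCT. In the 3′ UTR of 1 GENCODE v29 transcript per gene, neither site was found in any of the 10 genes. Among 12823 tested coding genes with a 3′ UTR, 6.58% held a guide site, 9.57% a passenger site and 14.8% either one.

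Promoter windows, from 250 bases before to 50 bases after a gene start, were taken from RefSeq (GRCh38.p14) and matched by symbol for 5 of the 10 genes, with 8 windows in all (CCND3 3, CDK6 2, and 1 each for CCNE1, CDK4 and CDKN1B). Windows were searched on both strands for the GC box GGGCGG, the binding motif of Sp1-type factors. The windows of CCNE1, the E-type cyclin that was not called, and of CCND3, the D-type cyclin that rose most, are shown 5′ to 3′ on the gene's strand, with each GC box in capitals.
CCNE1, chr19:29811741-29812040, plus strand: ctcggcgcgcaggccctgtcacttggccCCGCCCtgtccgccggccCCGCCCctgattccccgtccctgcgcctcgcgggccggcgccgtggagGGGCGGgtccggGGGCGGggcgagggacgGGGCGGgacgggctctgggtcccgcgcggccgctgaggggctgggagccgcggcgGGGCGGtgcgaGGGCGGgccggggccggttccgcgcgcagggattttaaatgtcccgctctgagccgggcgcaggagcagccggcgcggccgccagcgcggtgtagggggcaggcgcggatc
CCND3, chr6:41941759-41942058, minus strand: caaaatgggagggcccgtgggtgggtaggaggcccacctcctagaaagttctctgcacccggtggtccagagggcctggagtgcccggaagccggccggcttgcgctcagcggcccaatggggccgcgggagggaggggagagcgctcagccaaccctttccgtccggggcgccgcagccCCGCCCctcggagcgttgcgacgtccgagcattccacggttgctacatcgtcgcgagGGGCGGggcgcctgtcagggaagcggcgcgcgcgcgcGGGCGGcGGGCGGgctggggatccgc
The CCNE1 window holds 7 GC boxes and 81.0% G and C, and the CCND3 window shown holds 4 GC boxes and 73.7% G and C. It is the one of 3 CCND3 windows with the most CG dinucleotides (37), and the others hold 0 and 5 GC boxes. A GC box lies in 6 of the 8 windows and in 45.0% of 35116 promoters in the same table. None of the 8 windows matched an E2F motif (TTTCCCGC, TTTGGCGC, TTTCGCGC or TTTGCCGC, found in 3.31% of promoters), a STAT motif (TTCNNNGAA, 7.66%) or an AP-1 motif (TGANTCA, 7.71%). With shares this low and 8 windows, no lack of these motifs is read from this. Only the letters given were searched, so variant sites would be missed. CCND1, CCND2, CDK2, CCNE2 and CDKN1C had no window. The E box CACGTG occurs in 1 CDK4 window, 3 times, and in 1 CDK6 window, once, against 7.26% of promoters.

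Expression was read as TPM (a share of all transcripts), a level normalized for transcript length and library total. The depth of the libraries is unknown, because TPM keeps no read total. Over all genes, which do not count as replicates of each other, log2(TPM + 1) correlated at Pearson's r = 0.987 to 0.988 within groups and 0.975 to 0.976 between them. GMDS-AS1, listed as GMDS-DT (ENSG00000250903, chr6:2245748-2482022), had 1.66, 2.21 and 1.34 TPM in shCtrl and 0.88, 0.91 and 0.79 TPM in KD. Its libraries did not overlap and the change passed the test (log2 fold change -0.41 ± 0.14, SE, adjusted p = 0.0412), but leaving out shCtrl replicate 1 or 2 or any KD replicate ended the call (adjusted p = 0.0748 to 0.113). The call was also lost in fits without the filter on low values (adjusted p = 0.150), with a filter on a group mean of at least 1 TPM (0.0638) and with a replicate block (0.0523). All 6 epithelial markers were expressed, among them EPCAM (156 and 149 TPM), and their summed level was 9418 to 9867 TPM in shCtrl and 3581 to 3700 TPM in KD, mainly through the keratins KRT8 (4426 and 1358 TPM) and KRT18 (2972 and 702 TPM). Of the intestinal markers, CDX2 was at 8.47 ± 0.681 and 7.50 ± 2.65 TPM, CDX1 was at 0 in every library, and VIL1 and CDH17 stayed under 0.5 TPM. Markers of other cells summed to 13.5 to 15.0 and 10.2 to 11.3 TPM for fibroblasts, nearly all of it COL1A1, 7.69 to 9.61 and 7.27 to 8.39 TPM for leukocytes, mostly CD68 with PTPRC at 0, and at most 1.13 TPM for endothelium. The part of the keratin change in the results was not tested.

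For the test, a gene needed 0.5 TPM or more in 3 or more libraries, which 16901 genes had. The libraries were scaled by trimmed means of log ratios, and log2(TPM + 1) was compared with limma. Fold changes on this scale understate the change of low genes. A gene was called at a Benjamini-Hochberg adjusted p under 0.05 over all 16901 genes. The scaling matters for small changes. It divided the shCtrl values by 1.08 to 1.10 and the KD values by 0.905 to 0.927, and without it the median log2 fold change of all genes was -0.20 instead of 0.00063.

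CCNE2 fell most among the 10 genes, from 14.9 to 1.22 TPM, while its paralog CCNE1 was at 29.4 and 26.8 TPM and was not called. CCND3 rose from 21.7 to 31.5 TPM. CCND1, CDK4 and CDKN1B were called higher and CDK6 lower, all by small amounts. When the deposited TPM were compared without scaling, CDK4 was called lower (log2 fold change -0.15), while CCND1 (-0.11) and CDKN1B (-0.00031) were not called. CDK2 and CDKN1C were not called, and CCND2 was close to 0 in all libraries. In all, 4 of the 9 genes tested were called higher, against 28.7% of all genes, and 2 lower, against 25.8%. Without scaling, 1 was called higher and 5 lower, against 16.3% and 40.3% of all genes. With 9 genes, nothing particular to them is read from these counts. At 2-fold or more, CCNE2 was called lower, as were 4.21% of all genes, and no gene of the 10 was called higher, against 2.96% (without scaling, CCNE2 again, with 6.96% of all genes called lower). The TPM of the groups did not overlap for 7 of the 9 genes, against 63.7% of all genes. Their median log2 fold change was 0.10, beside 0.00063 over all genes, and without scaling -0.15 beside -0.20.

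**Figure D1:**
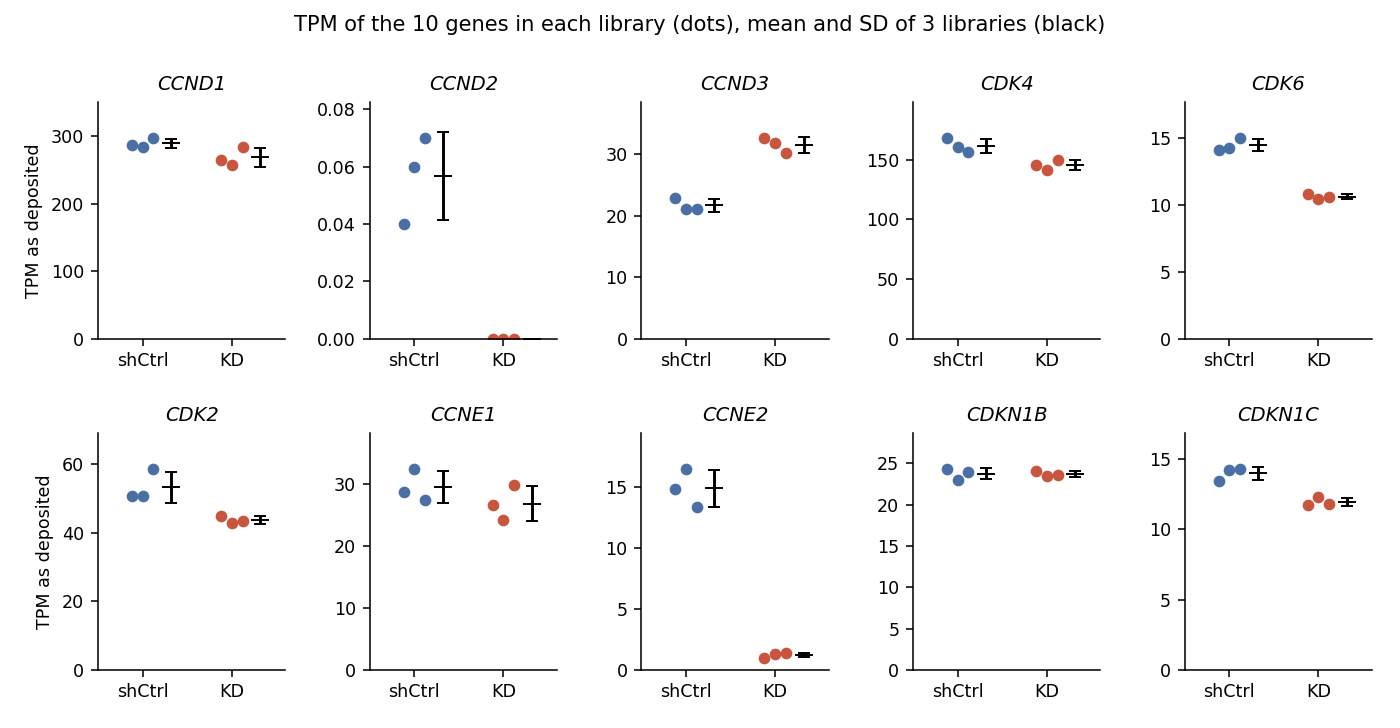
TPM of the 10 genes in each library, with 1 panel per gene, the groups on the x axis and TPM as deposited on the y axis (each panel has its own scale from 0). Dots are libraries and black bars the mean and SD of 3 libraries. CCNE2 drops from 14.9 to 1.22 TPM and CCND3 rises from 21.7 to 31.5 TPM, while the dots of CCNE1 and CDKN1B overlap between the groups.

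The cyclins that bind CDK4 and CDK6 were unequal in level. CCND1 (ENSG00000110092, chr11:69641087-69654474), the main D-type cyclin of these cells, had 287.07, 283.83 and 297.11 TPM in shCtrl and 264.31, 257.45 and 283.75 TPM in KD. The lowest shCtrl and the highest KD library lay next to each other, and the groups did not overlap. The mean was 289 ± 6.92 TPM (SD, n = 3) in shCtrl and 269 ± 13.6 TPM (n = 3) in KD. After scaling, CCND1 was called higher (log2 fold change 0.14 ± 0.039, SE, adjusted p = 0.0208), whereas without scaling its value was -0.11 and was not called (adjusted p = 0.0593). The call was also lost with upper-quartile scaling (0.048, adjusted p = 0.312), without the variance trend (adjusted p = 0.0780), and without shCtrl replicate 1 or 2 (adjusted p = 0.0599 and 0.0682).

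CCND3 (ENSG00000112576, chr6:41934933-42050357), the D-type cyclin best known from blood cells, had 22.94, 21.05 and 21.12 TPM in shCtrl and 32.63, 31.77 and 30.13 TPM in KD. Every KD library was above every shCtrl library, and the gap was wider than the spread within either group. The mean rose from 21.7 ± 1.07 to 31.5 ± 1.27 TPM (SD, n = 3 each), and the log2 fold change was 0.76 ± 0.055 (SE), a 1.69-fold rise on the scaled scale (adjusted p = 4.02e-05). A change of this size or larger, in either direction, was seen in 15.1% of all genes tested. CCND3 was called in all 13 alternative fits, with log2 fold changes of 0.52 to 0.80, and did not reach 2-fold.

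CCND2 (ENSG00000118971, chr12:4273772-4305350), the remaining D-type cyclin, had 0.04, 0.06 and 0.07 TPM in shCtrl and was listed at 0 in all 3 KD libraries. These levels were under the filter, so the gene was not tested and no fold change is given. AC008012.1, a gene annotated over the whole of CCND2 on the same strand, was at 0.09, 0.04 and 0.13 TPM in shCtrl and also at 0 in KD.

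Within each library, which no scaling between libraries can change, the D-type cyclins can be set against each other. The ratio of CCND1 to CCND3 was 12.5, 13.5 and 14.1 in shCtrl and 8.10, 8.10 and 9.42 in KD, so all KD libraries lay below all shCtrl libraries. CCND3 made up 6.98% ± 0.387 of the summed D-type cyclin TPM in shCtrl and 10.5% ± 0.801 in KD (SD, n = 3). The sum itself was 311 ± 6.74 and 300.0 ± 12.6 TPM.

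CDK4 (ENSG00000135446, chr12:57747727-57756013), the more abundant of the kinases of D-type cyclins, had 168.42, 161.04 and 156.52 TPM in shCtrl and 145.91, 141.85 and 150.13 TPM in KD. The KD libraries were lower in TPM without overlap (162 ± 6.01 and 146 ± 4.14 TPM). Its sign depended on the scaling: the log2 fold change was 0.10 ± 0.031 (SE, adjusted p = 0.0321) after scaling and -0.15 (adjusted p = 0.0132) without it. With upper-quartile scaling it was 0.0070 (adjusted p = 0.874). The scaled call was also lost without the variance trend (adjusted p = 0.131) and without shCtrl replicate 2 or 3 or KD replicate 1 or 3 (adjusted p = 0.0653 to 0.0949).

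CDK6 (ENSG00000105810, chr7:92604921-92836594), the other kinase of the D-type cyclins, had 14.12, 14.28 and 14.99 TPM in shCtrl and 10.82, 10.41 and 10.61 TPM in KD. All KD libraries were lower, with means of 14.5 ± 0.463 and 10.6 ± 0.205 TPM. The direction was the same under all alternatives (log2 fold change -0.18 ± 0.056, SE, adjusted p = 0.0300, and -0.41 without scaling, adjusted p = 0.000723). The call was lost in 5 of 6 fits that left out 1 library, those without shCtrl replicate 2 or 3 or any KD replicate (adjusted p = 0.0570 to 0.0952). It was also lost without the filter on low values (adjusted p = 0.0732) and with a replicate block (0.0728). The ratio of CDK4 to CDK6 within a library was 11.9, 11.3 and 10.4 in shCtrl and 13.5, 13.6 and 14.1 in KD, again without overlap.

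The E-type cyclins, which activate CDK2, had unlike values. CCNE1 (ENSG00000105173, chr19:29811898-29824308) had 28.61, 32.32 and 27.33 TPM in shCtrl and 26.49, 24.10 and 29.80 TPM in KD. The groups overlapped, with 1 KD library above 2 of the 3 shCtrl libraries. The mean was 29.4 ± 2.59 and 26.8 ± 2.86 TPM, and the log2 fold change of 0.11 (95% interval -0.09 to 0.31, adjusted p = 0.310) was not distinguishable from 0. Without scaling it was -0.13 (adjusted p = 0.263).

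CCNE2 (ENSG00000175305, chr8:94879770-94896678), the other activating partner of CDK2, had 14.85, 16.46 and 13.40 TPM in shCtrl and 1.00, 1.31 and 1.35 TPM in KD. The lowest shCtrl library was far above the highest KD library, and the spread within the groups was small beside the gap. The mean fell from 14.9 ± 1.53 to 1.22 ± 0.192 TPM (SD, n = 3 each), so the deposited TPM were 12.2 times as high in shCtrl. On the log2(TPM + 1) scale the change was -2.65 ± 0.11 (SE, 95% interval -2.91 to -2.40), a 6.29-fold fall, with an adjusted p of 3.36e-06. With a pseudocount of 0.1 in place of 1 the log2 fold change was -3.27. CCNE2 had the 16th largest fall among the genes tested, and 0.142% of the genes changed as much in either direction. It was called in all 13 alternative fits, with log2 fold changes of -3.27 to -2.58. In these bulk libraries, fewer cells that hold a transcript and fewer copies per cell cannot be told apart.

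The ratio of CCNE1 to CCNE2 within a library was 1.93, 1.96 and 2.04 in shCtrl and 26.5, 18.4 and 22.1 in KD. The means were 1.98 ± 0.0576 and 22.3 ± 4.05, a log2 difference of 3.48, or 2.71 when 1 TPM was added to both genes. CCNE2 supplied 33.6% ± 0.646 of the summed E-type cyclin TPM in shCtrl and 4.38% ± 0.760 in KD. The sum was 44.3 ± 4.09 TPM in shCtrl and 28.0 ± 2.91 TPM in KD. The 3 ratios of paralogs (D-type cyclins, CDK4 and CDK6, E-type cyclins) were tested by exact two-sided permutation over libraries. The permutation test gave p = 0.1 each (Benjamini-Hochberg adjusted 0.1), which is the smallest p that 3 against 3 libraries allow. How many other pairs of genes have ratios without overlap was not worked out, and 63.7% of single genes had no overlap.

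**Figure D2:**
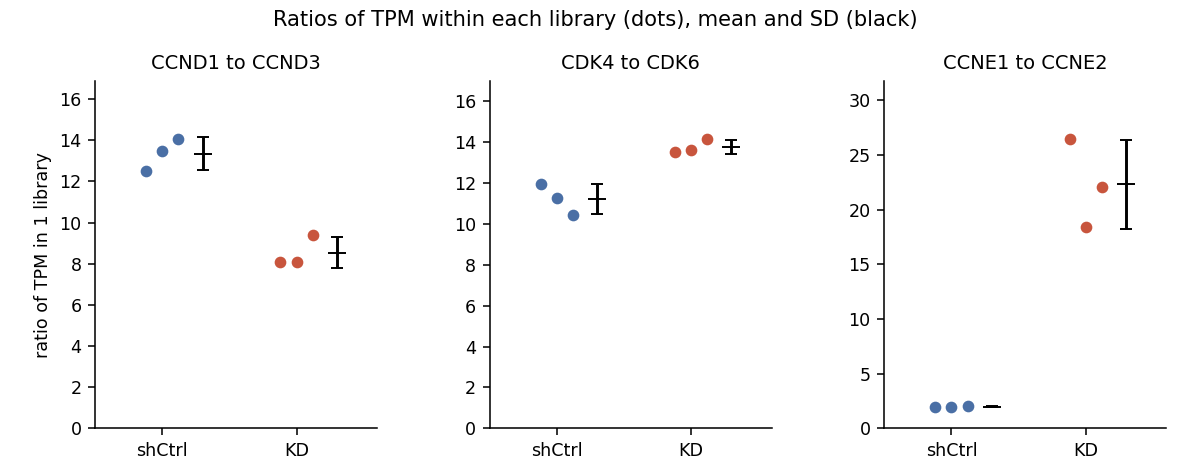
Ratio of TPM of a pair of paralogs within each library, for CCND1 to CCND3, CDK4 to CDK6 and CCNE1 to CCNE2. Dots are libraries of shCtrl and GMDS-AS1 KD, black bars show mean and SD (n = 3), and each y axis starts at 0. No pair of groups overlaps, and the ratio of the E-type cyclins moves from 1.98 to 22.3. The TPM of single genes do not overlap between the groups in 63.7% of all genes tested. No such share was worked out for ratios.

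CDK2 (ENSG00000123374, chr12:55966769-55972784), the kinase that the E-type cyclins activate, had 50.78, 50.65 and 58.52 TPM in shCtrl and 44.98, 42.89 and 43.37 TPM in KD. The KD libraries were lower in TPM, and shCtrl replicate 3 stood above the other shCtrl libraries. The mean was 53.3 ± 4.51 and 43.7 ± 1.09 TPM. After scaling, the log2 fold change was -0.03 (95% interval -0.19 to 0.13, adjusted p = 0.725), and without scaling CDK2 was called lower at -0.28 (adjusted p = 0.00811). Leaving out shCtrl replicate 3 turned the scaled value to 0.05.

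CDKN1B (ENSG00000111276, chr12:12715058-12722371), which encodes p27, had 24.30, 22.98 and 23.96 TPM in shCtrl and 24.12, 23.43 and 23.66 TPM in KD. The groups overlapped, and the means were 23.7 ± 0.685 and 23.7 ± 0.351 TPM. Relative to the other genes of the same libraries it was called higher (log2 fold change 0.24 ± 0.044, SE, adjusted p = 0.00359), whereas without scaling the value was -0.00031 (adjusted p = 0.996). The call rests on the scaling.

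CDKN1C (ENSG00000129757, chr11:2883213-2885773), which encodes p57 and is an imprinted gene, had 13.47, 14.24 and 14.28 TPM in shCtrl and 11.73, 12.30 and 11.80 TPM in KD. All KD libraries were lower in TPM (14.0 ± 0.457 and 11.9 ± 0.311). After scaling the change was 0.02 (95% interval -0.12 to 0.16, adjusted p = 0.794), and without scaling it was -0.21 (adjusted p = 0.0152), near the median gene at -0.20.

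**Figure D3:**
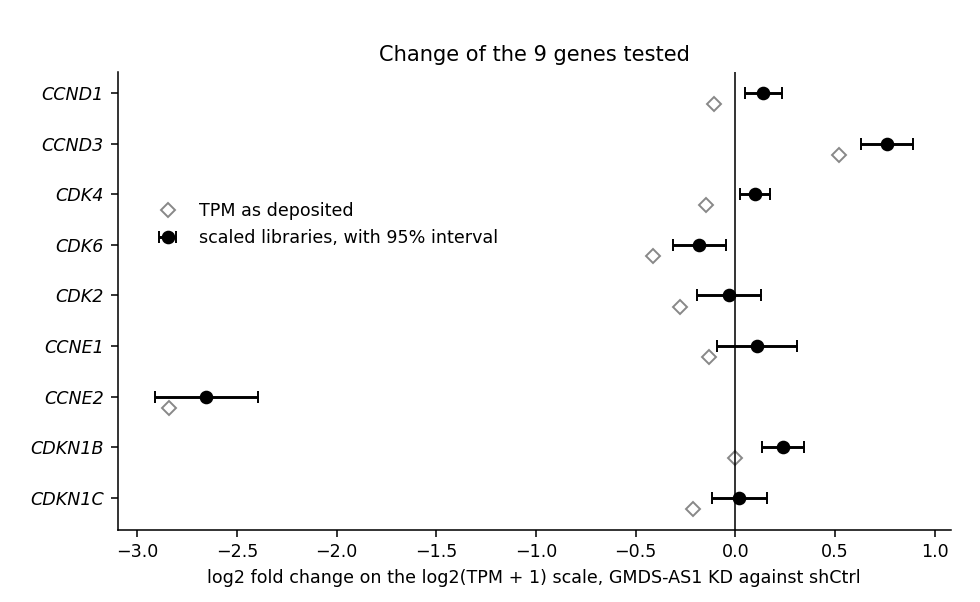
Log2 fold change of the 9 genes tested, GMDS-AS1 KD against shCtrl, on the log2(TPM + 1) scale. Black dots with bars give the scaled values and their 95% intervals, and open diamonds the values of the deposited TPM without scaling. CCNE2 at -2.65 and CCND3 at 0.76 lie clear of 0 on both, while CCND1, CDK4, CCNE1 and CDKN1C change side between them. CDKN1B moves to -0.00031 without scaling.

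The order of the levels, which TPM allow to be compared between genes, was CCND1, CDK4, CDK2, CCNE1, CDKN1B, CCND3, CCNE2, CDK6, CDKN1C and CCND2 in shCtrl. All neighbours in that order were separate in every library but for CCNE2, CDK6 and CDKN1C, which overlapped with the next at 14.9, 14.5 and 14.0 TPM. In KD, CCND3 stood at rank 4 in place of CCNE1, and CCNE2 at rank 9, below CDKN1C at 11.9 TPM and CDK6 at 10.6 TPM. CCNE1 and CDKN1B overlapped there at 26.8 and 23.7 TPM.

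**Figure D4:**
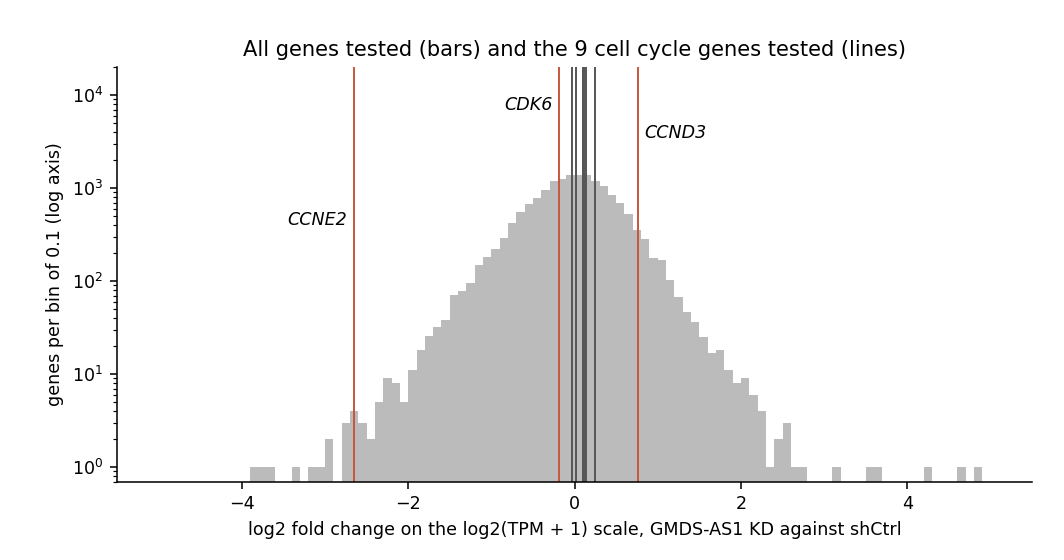
Log2 fold changes of all 16901 genes tested as a histogram, on the log2(TPM + 1) scale after scaling, with the number of genes per bin of 0.1 on a log axis. Vertical lines mark the 9 genes tested, in red for the named CCNE2, CDK6 and CCND3 and in black for the other 6. CCNE2 at -2.65 lies in the left tail, CCND3 at 0.76 on the right flank, and the others near the centre.

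Several of the 10 genes share ground with other annotated genes, and since no source used here states whether reads were counted by strand, reads of overlapping genes may have been split between them. CCNE2 overlaps 1977 bases of INTS8, a subunit of the Integrator complex on the opposite strand, which had 33.47, 23.47 and 26.89 TPM in shCtrl and 42.68, 39.62 and 41.10 TPM in KD. INTS8 was called higher (log2 fold change 0.80, adjusted p = 0.00122), opposite in direction to CCNE2. NDUFAF6, a mitochondrial complex I assembly factor that overlaps the other end of CCNE2 by 912 bases, was at 13.4 ± 1.31 and 11.6 ± 0.818 TPM and was not called (adjusted p = 0.766). Inside CCNE2, AC087752.4 had at most 0.5 TPM and AC087752.1 was listed at 0.

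CDK2 lies with all its 6016 bases within PMEL, a gene of pigment cells on the opposite strand, which fell from 4.89 ± 0.359 to 2.40 ± 0.666 TPM (log2 fold change -0.62, adjusted p = 0.0117). CDK4 overlaps TSPAN31 by 2485 bases (8.43 and 4.57 TPM, adjusted p = 0.0754), MARCHF9 by 916 bases (12.0 and 11.2 TPM, adjusted p = 0.238) and MIR6759, which was listed at 0. CCND1 overlaps LTO1 by 1399 bases (13.7 and 13.9 TPM, adjusted p = 0.0946). All of these partners lie on the opposite strand except MIR6759. AC002454.1 overlaps CDK6 by 112 bases and had at most 1.9 TPM, while RNU6-10P in CDK6, RNU6-761P and AL513008.1 in CCND3, CCND2-AS1 at CCND2 and AC025162.1 in CDK2 were listed at 0. AC008115.3, inside CDKN1B, had no value.

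AU-rich elements in 3′ UTRs, built from the pentamer ATTTA, are binding places of RNA-stability factors, and the E-type cyclins differ in them. CCNE2 holds 11 ATTTA in a 3′ UTR of 1862 bases, 5.91 per kb, and CCNE1 holds 0 in 531 bases. Over 12823 coding genes the median was 2, or 1.51 per kb, and 10.4% held as many as CCNE2 and 6.03% as dense a set. Other genes of the 10 were rich in them as well. CDKN1B, with equal TPM means as deposited, was called higher after scaling (log2 fold change 0.24). It holds 7 in 1344 bases, or 5.21 per kb, and CDK6 holds 26 in 10219 bases, or 2.54 per kb. CCND1 holds 7, CCND2 8, CCND3, CDK2 and CDKN1C 2 each, and CDK4 0. A match is a description of these letters and not a bound site. Whether these elements have a part in any of the changes was not tested.

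Genes that act with these 10 were counted as a list of 32 other G1/S genes, all of them tested: 12 were called higher and 7 lower, beside 28.7% and 25.8% of all genes, and 13 neither, with a median log2 fold change of 0.10. None was at 2-fold or more after scaling. Without scaling the calls were 7 higher and 16 lower, beside 16.3% and 40.3% of all genes. Of those called lower, 3 were lower by 2-fold or more, beside 6.96% of all genes. These counts and those by role are descriptions, and no difference between roles was tested. Among 10 subunits and receptors of the ubiquitin ligases that act on G1 cyclins and p27, 7 were called higher and 1 lower. Of all genes, 28.7% and 25.8% were. Without scaling the calls were 3 higher and 2 lower, beside 16.3% and 40.3% of all genes, so most of the rises in this list rest on the scaling. CUL1, the scaffold of the SCF ligase, rose from 25.5 ± 1.67 to 38.5 ± 0.302 TPM (log2 fold change 0.82, adjusted p = 1.63e-05). SKP2, the SCF receptor for p27, rose from 10.1 ± 1.42 to 13.4 ± 0.549 TPM (0.60, adjusted p = 0.00177). The 1 called lower after scaling was FBXW7, the SCF receptor for cyclin E, which was named after the values were seen. It fell from 15.0 ± 0.888 to 7.10 ± 2.18 TPM (log2 fold change -0.79, adjusted p = 0.00864).

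Of 10 E2F and DP factors, 3 were called higher and 4 lower, beside 28.7% and 25.8% of all genes. Without scaling the calls were 2 and 7, beside 16.3% and 40.3% of all genes. E2F5, a repressing E2F that works with pocket proteins, fell from 13.2 ± 2.04 to 5.71 ± 0.590 TPM (log2 fold change -0.86, adjusted p = 0.00107). E2F1, an activating E2F, fell from 10.8 ± 0.201 to 7.55 ± 0.240 TPM (-0.24, adjusted p = 0.0122). Of 3 pocket proteins, RB1 was at 13.9 ± 0.796 and 12.6 ± 1.09 TPM and was not called (adjusted p = 0.293), and RBL1, named after its value was seen, was called lower (log2 fold change -0.36). Of the 4 CDK activators, CDK7, likewise named afterwards, was called higher at 0.73.

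The other CDK inhibitors held 1 gene called higher and 1 lower among 5, beside 28.7% and 25.8% of all genes. Without scaling the calls were 1 and 4, beside 16.3% and 40.3% of all genes. CDKN2C (p18), an inhibitor of CDK4 and CDK6, fell from 7.34 ± 0.290 to 3.08 ± 0.931 TPM (log2 fold change -0.86, adjusted p = 0.00559), and CDKN2D (p19), of the same family and named after its value was seen, rose by 0.57 on the log2 scale. CDKN1A (p21), the third CIP/KIP inhibitor, was at 772 ± 4.79 TPM in shCtrl and 675 ± 11.1 TPM in KD, far above p27 and p57. It was not called after scaling (0.06, adjusted p = 0.0563) and was called lower without it (-0.19, adjusted p = 0.000301).

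Of 19 genes known as E2F targets, apart from the E-type cyclins, 9 were called higher and 5 lower, beside 28.7% and 25.8% of all genes, with a median log2 fold change of 0.10. None was at 2-fold or more after scaling. Without scaling, 7 were called higher and 10 lower, beside 16.3% and 40.3% of all genes. Of those called lower, 2 were lower by 2-fold or more, beside 6.96% of all genes. The genes called higher were MCM2, MCM3, MCM4, MCM5 and MCM7, subunits of the replicative helicase, PCNA, TK1, ORC1 and MYBL2. MCM5 rose from 38.0 ± 2.70 to 61.7 ± 6.32 TPM (log2 fold change 0.93, adjusted p = 0.000104) and MCM2 from 44.7 ± 2.52 to 69.7 ± 2.90 TPM (0.88, adjusted p = 9.51e-06). Of the 5 called lower, RRM2, a subunit of ribonucleotide reductase, fell from 200.0 ± 13.2 to 88.7 ± 1.27 TPM (log2 fold change -0.91, adjusted p = 1.75e-05).

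**Figure D5:**
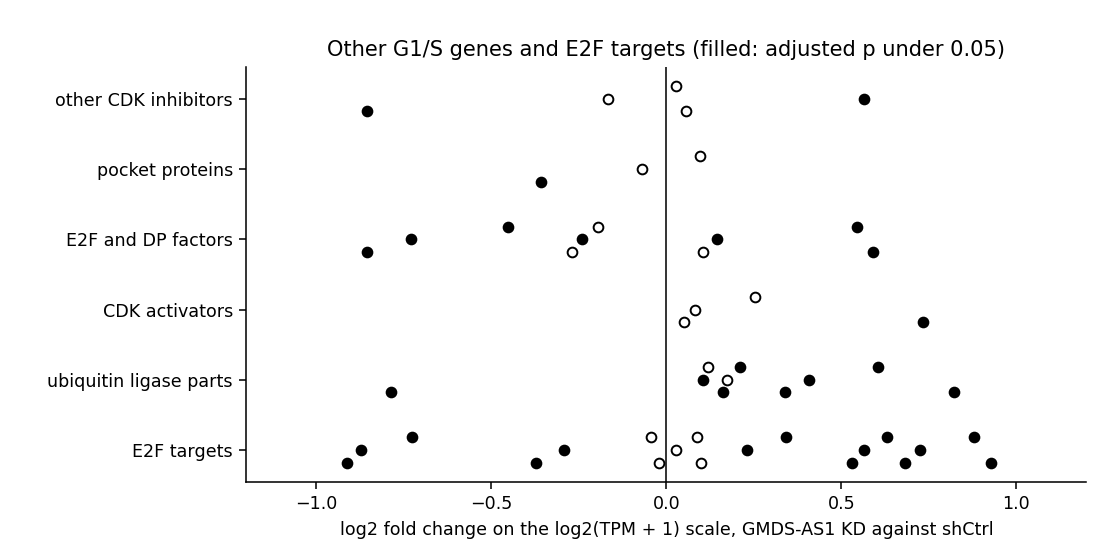
Log2 fold change on the log2(TPM + 1) scale of the 32 other G1/S genes, in 5 rows by role, and of the 19 E2F targets. Each dot is a gene, filled where its adjusted p was under 0.05, and dots are spread vertically only to keep them apart. All lie between -0.91 and 0.93, and filled dots stand on both sides of 0. The values are those after scaling, and without it 7 of the 32 were called higher and 16 lower, and 7 of the 19 higher and 10 lower. Of all genes, 16.3% were called higher and 40.3% lower without scaling.

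The genes whose pattern over the 6 libraries was nearest to that of CCNE2 and CCND3 were found by the Euclidean distance between log2 values, each gene centred on its own mean. For CCNE2 they were PCK2, the mitochondrial phosphoenolpyruvate carboxykinase (distance 0.258, from 105 ± 2.55 to 12.9 ± 0.510 TPM), the secreted matrix protein gene CCN1 (0.293, from 71.6 ± 3.51 to 9.33 ± 0.524 TPM) and the protease inhibitor gene SERPINA1 (0.304, from 7.33 ± 0.321 to 0.377 ± 0.130 TPM). For CCND3 they were MYBL2, itself on the list of E2F targets (0.0575, from 26.2 ± 1.31 to 37.0 ± 1.16 TPM), the coatomer subunit gene COPE (0.0640, from 132 ± 4.29 to 187 ± 2.75 TPM) and the ribosome assembly gene KRI1 (0.0674, from 26.6 ± 1.15 to 38.9 ± 0.992 TPM). These distances describe likeness over 6 libraries of 2 groups, in which many genes share a difference between the groups.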

How the data were processed

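RNA of stably transduced HCT116 cells was sequenced as poly-A selected paired-end libraries, 3 of shCtrl and 3 of GMDS-AS1 KD, grouped by their labels. The authors deposited TPM per Ensembl gene, named Cufflinks and RSEM for expression levels, and compared the groups with DESeq2. The submitters' processing notes list Trimmomatic 0.27, TopHat2 2.1.1 and GRCh38.p13. The annotation and the strand setting are not given in the sources used here. TPM sums were 991058 to 992992 per library, 2 genes with broken lines were left out, and no columns were identical.

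Libraries were scaled by trimmed means of log ratios (30% and 5% trimmed). Then log2(TPM + 1) was fitted with limma 3.58.1 (R 4.3.3) with a variance trend and no replicate block. The fit was also run on simulated data without an overall shift between the groups, so that run does not bear on the scaling. Genes needed 0.5 TPM in 3 libraries. Ratios were tested by exact two-sided permutation. Means and SDs are of deposited TPM. Gene positions and 3′ UTRs came from GENCODE v29, promoters from RefSeq. Python 3.11.15 with numpy 2.4.6, pandas 2.3.3, scipy 1.17.1 and matplotlib 3.10.9 was used.

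The 10 genes and the lists were chosen with earlier results of these data known. Named beside them were CDKN1A, RB1, E2F1, SKP2, the 3 largest called changes of each list, overlapping genes, GMDS-AS1 and the 3 nearest patterns of the largest called rise and fall. FBXW7, RBL1, CDK7, CDKN2D, E2F4, E2F6, TFDP2 and the other E2F targets called higher were added after their values were seen. Alternatives covered scaling, pseudocount, filter, variance trend, replicate block, a 2-fold threshold and leaving out each library. Over all genes, same-numbered libraries did not deviate together.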

Additional observations from a re-analysis of the deposited data

How the results depend on the processing

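CCNE2 and CCND3 kept their direction and call in all 13 alternative fits, and CCND3 did not reach the 2-fold threshold. Without scaling between libraries, 1 of the 10 genes was called higher instead of 4 and 5 lower instead of 2. The other G1/S genes gave 7 higher and 16 lower, and the E2F targets 10 lower. Of all genes, 16.3% were called higher and 40.3% lower in that setting. Without scaling, log2 fold changes were -0.11 for CCND1, -0.15 for CDK4, -0.13 for CCNE1, -0.00031 for CDKN1B and -0.21 for CDKN1C. The median gene was at -0.20 in that setting, and these data do not decide whether scaled or unscaled values are right. Upper-quartile scaling gave -0.066 for CDKN1C and 2 of the 10 higher. Without a variance trend, CCND1 and CDK4 lost their call and 2 were higher, and without the filter on low values 1 was lower. With the added 2-fold threshold, 0 of the 10 were higher and 1 was lower, 0 other G1/S genes and 0 E2F targets were called in either direction, and 1212 genes were called in all in place of 9199. With 1 TPM added to both genes, the log2 ratio of CCNE1 to CCNE2 differed by 2.71 in place of 3.48.

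Leaving out 1 library gave 2 to 4 of the 10 higher and 1 to 2 lower, 9 to 12 other G1/S genes higher and 6 to 8 lower, 9 E2F targets higher and 4 to 5 lower, 8160 to 8409 genes called in all, and a log2 difference of the CCNE1 to CCNE2 ratio of 3.35 to 3.61. CDKN1C ranged from -0.0088 (without shCtrl replicate 1) to 0.042, with -0.0064 without KD replicate 2, and CDK2 from -0.072 to 0.045 (without shCtrl replicate 3). Over all genes, the deviations of same-numbered libraries correlated by 0.0290, -0.0376 and 0.0142. These values cannot tell whether same-numbered libraries were prepared together. With the replicate block, 1 of the 10 was called lower, with CDK6 (adjusted p = 0.0728) and CDK4 no longer called. Beyond the changed fits themselves, the cause of these differences was not tested. With 3 libraries per group and TPM without read totals, counting error cannot be given for CCND2 or other low genes.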
